A study of Caenorhabditis elegans with 8 samples.

Results

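Homeobox genes outside the Hox cluster were followed in late embryos of the nematode Caenorhabditis elegans. The set holds every gene in the count files whose WormBase name starts with ceh-, other than the Hox gene ceh-13. To these were added 20 named homeobox genes: unc-4, unc-30, unc-42, unc-86, mec-3, ttx-1, ttx-3, lim-4, lim-6, lim-7, lin-11, mls-2, vab-3, vab-7, vab-15, pal-1, tab-1, cog-1, dsc-1 and alr-1. This gave 82 genes of the 46748 in the files, all 82 annotated as protein coding. The neuronal regulator unc-3 was left out because it does not encode a homeodomain. The rule goes by gene name and uses no measured value, although results of these data were known when the set was proposed. RNA was sequenced from whole embryos of 2 strains with 4 libraries each. Embryos called 3A carry the lin-52 allele bn151, whose protein has 3 alanine substitutions and is fused to GFP::3xFLAG. These are L42A, C44A and also E46A, written as original residue, position in the protein and new residue. Embryos called WT carry the allele bn139, the same GFP::3xFLAG fusion of lin-52 without the substitutions, so both strains share the tag and no untagged strain was compared. Both were grown in liquid culture for 72 h, and embryos released from adults by bleaching were held at 20 °C for at most 3.5 h before freezing. The comparison asked which genes are misexpressed when LIN-35 no longer associates with the MuvB complex.

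A homeobox encodes the homeodomain, a helical DNA-binding fold that recognises short sites rich in A and T. In C. elegans these transcription factors act in the early lineage, where they assign blastomere and tissue identity, and again at the end of neurogenesis, where many act as terminal selectors that switch on and hold the genes of 1 neuron type. LIN-52 belongs to MuvB, which together with the pocket protein LIN-35 and an E2F-DP dimer forms the DREAM repressor of cell cycle and germline genes.

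Depth was 17346339 to 29101114 read pairs assigned to genes in the 3A libraries and 14667743 to 68040557 in the WT libraries. Levels are given as CPM, counts scaled to library size, with each library size adjusted by the TMM factor of edgeR (trimmed mean of M-values). A count of 3, taken as the smallest detectable signal, corresponded to 0.0717 to 0.275 CPM in 3A libraries and 0.0229 to 0.249 CPM in WT libraries. It covers counting error only. Ribosomal RNA genes took 1.75% to 40.7% of gene counts in 3A libraries and 0.720% to 3.24% in WT libraries. The mRNA of lin-52 itself averaged 6.86 ± 2.66 CPM in 3A and 6.78 ± 3.81 CPM in WT (SD, n = 4 each), with a log2 fold change of 0.00 (SE 0.41, adjusted p = 0.998 by edgeR), and its substitutions are not visible in gene counts. Because whole embryos were sequenced, fewer cells of a type and less RNA per cell cannot be told apart in any value below. The labels do not say whether same-numbered libraries of the 2 strains were grown together.

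Most homeobox genes were present at low level and a few dominated. The 82 genes together held 674, 738, 712 and 726 CPM in 3A replicates 1 to 4, against 673, 643, 619 and 653 CPM in WT replicates 1 to 4. Every 3A sum lay above every WT sum with TMM scaling, though those of 3A replicate 1 and WT replicate 1 were almost equal. Without the TMM factor this order was lost. The 82 genes took 7927 of 17346339 gene counts in 3A replicate 4, against 80917 of 68040557 in WT replicate 3. ceh-51 alone averaged 106 CPM in 3A and 66.1 CPM in WT. Of the 68 genes later tested, 45 had a negative and 23 a positive log2 fold change. The sums weigh abundant genes most and were not tested. Over the 8 libraries ceh-51 held 12.6% and ceh-43 13.1% of the total. The number with at least 3 counts was 68 to 76 in 3A libraries and 70 to 80 in WT libraries, and the deepest library, WT replicate 3, had the most. For an order of levels between genes, CPM was divided by exon length in kb and averaged over the 8 libraries. On that scale 12 genes reached at least 10 CPM per kb, 54 reached at least 1 CPM per kb and 28 were under 1 CPM per kb.

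**Figure D1:**
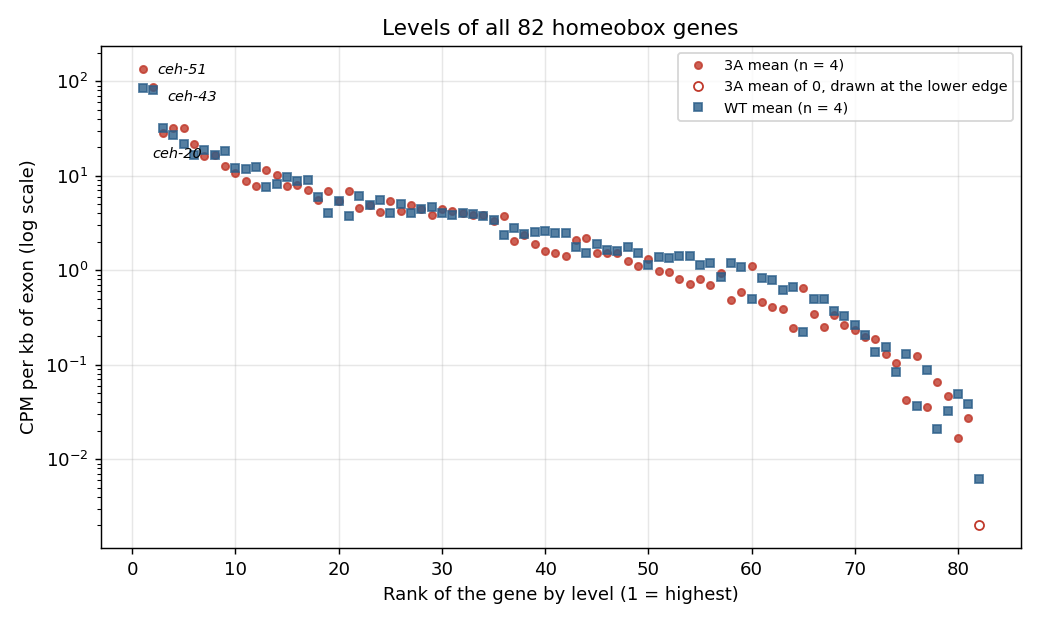
Mean level of each of the 82 homeobox genes in CPM per kb of exon (log scale) against its rank over all 8 libraries, with circles for 3A and squares for WT (n = 4 each). Levels run from above 80 CPM per kb for ceh-51 and ceh-43 to below 0.01 for ceh-7, whose 3A mean is 0 and is drawn as an open circle at the lower edge.

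The 2 highest genes were ceh-51 and ceh-43. ceh-51 (WBGene00013583; WBcel235 chromosome V, 18874133 to 18875982, plus strand), which acts with the T-box gene tbx-35 in specifying mesoderm of the MS lineage, averaged, in CPM per kb, 135 ± 22.7 in 3A and 84.7 ± 37.6 in WT (SD, n = 4 each). ceh-43 (WBGene00000463; WBcel235 chromosome III, 4446638 to 4449943, minus strand), the distal-less homologue that acts in anterior epidermis and in dopaminergic neurons, averaged, in CPM per kb, 87.3 ± 9.15 in 3A and 81.2 ± 7.44 in WT. Their ranges over the 8 libraries overlapped, and ceh-51 was the higher of the pair in 6 of 8 libraries. ceh-43 was above the next gene in the order in all 8 libraries: its lowest value was 71.1 CPM per kb, and the highest value of that gene, ceh-20, was 54.1 CPM per kb. Every later pair of neighbours among the 12 highest genes overlapped. The order continued with ceh-20 at 30.1 CPM per kb over all 8 libraries, the goosecoid homologue ceh-45 at 29.3, ceh-40 at 26.7, ceh-86 at 19.03, ceh-58 at 17.4, the NK-2 class gene ceh-27 at 16.6, ceh-5 at 15.6, ceh-88 at 11.4, the engrailed homologue ceh-16 at 10.3 and unc-42 at 10.02. ceh-20 and ceh-40 both encode PBC proteins of the TALE class, and CEH-20 is the main C. elegans partner of Hox proteins.

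At the low end, 14 genes did not pass the filter on low counts and were not tested: ceh-1, ceh-7, ceh-12, ceh-14, ceh-23, ceh-28, ceh-57, ceh-60, ceh-75, ceh-81, ceh-82, ceh-84, ceh-87 and ceh-90. The filterByExpr rule of edgeR turns a minimum of 10 counts into a CPM cutoff at the median library size. That cutoff must be met in at least as many libraries as a strain has. None of the 82 was at 0 in all libraries. ceh-7 was closest, with 1 count in WT replicate 3 and 0 counts in the other 7 libraries. ceh-12, the homologue of the motor neuron gene HB9, had 1, 0, 0 and 0 counts in 3A replicates 1 to 4, against 0, 4, 5 and 0 counts in WT replicates 1 to 4. ceh-60, a PBC gene known for regulating vitellogenin genes in the adult intestine, had 6, 31, 9 and 4 counts in 3A replicates 1 to 4, against 14, 47, 65 and 5 counts in WT replicates 1 to 4. With at most 5 counts in any library, no difference in ceh-12 was detectable at this depth.

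No homeobox gene passed the test for a difference between 3A and WT. A gene was called where edgeR's quasi-likelihood test, with Benjamini-Hochberg adjustment across the 12664 genes in the fit, put it under 0.05. By that rule 0 of the 68 homeobox genes were called, and 0 were called by DESeq2. The background was 0.371% of all genes with edgeR, 0.355% higher and 0.0158% lower in 3A, and 1.31% with DESeq2, so a set of this size would hold few calls at the background share. The smallest edgeR adjusted p-value among the 68 was 0.297. At an unadjusted p-value under 0.05 there were 4 higher and 5 lower, or 5.88% and 7.35% of the 68, beside 5.72% and 4.03% of all genes tested. Genes whose CPM did not overlap between the strains numbered 3 higher and 3 lower, or 4.41% in each direction, beside 3.8% higher and 2.36% lower over all genes tested. These shares rest on 3 to 5 genes each, and none was tested against the background. The median log2 fold change was -0.17, beside -0.08 over all genes tested, and 23 genes (33.8%) had a positive value, beside 42.8% over all genes tested.

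A missed threshold does not show that a gene was at the same level in both strains, and the intervals differ in what they leave possible. The 95% interval of the log2 fold change lay within 2-fold in both directions for 23 of the 68 genes. It excluded a 2-fold increase for 51 and a 2-fold decrease for 37. These intervals are per gene, without adjustment for the 68, and hold for TMM scaling. With library size alone the median log2 fold change of the 68 was -0.49, beside -0.17 with TMM. The counts of intervals may therefore differ with the scaling, and they were not repeated with library size alone. Among the genes held within 2-fold were ceh-43, at 86.8, 81.8, 103 and 96.1 CPM in 3A replicates 1 to 4, against 74.9, 91.7, 84.4 and 91.3 CPM in WT replicates 1 to 4, with an interval of -0.40 to 0.61 on the log2 scale. Others were ceh-27 (-0.63 to 0.68), ceh-16 (-0.91 to 0.09), ceh-86 (-0.13 to 0.89) and pal-1 (-0.68 to 0.63), the caudal homologue that specifies the C and D lineages.

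**Figure D2:**
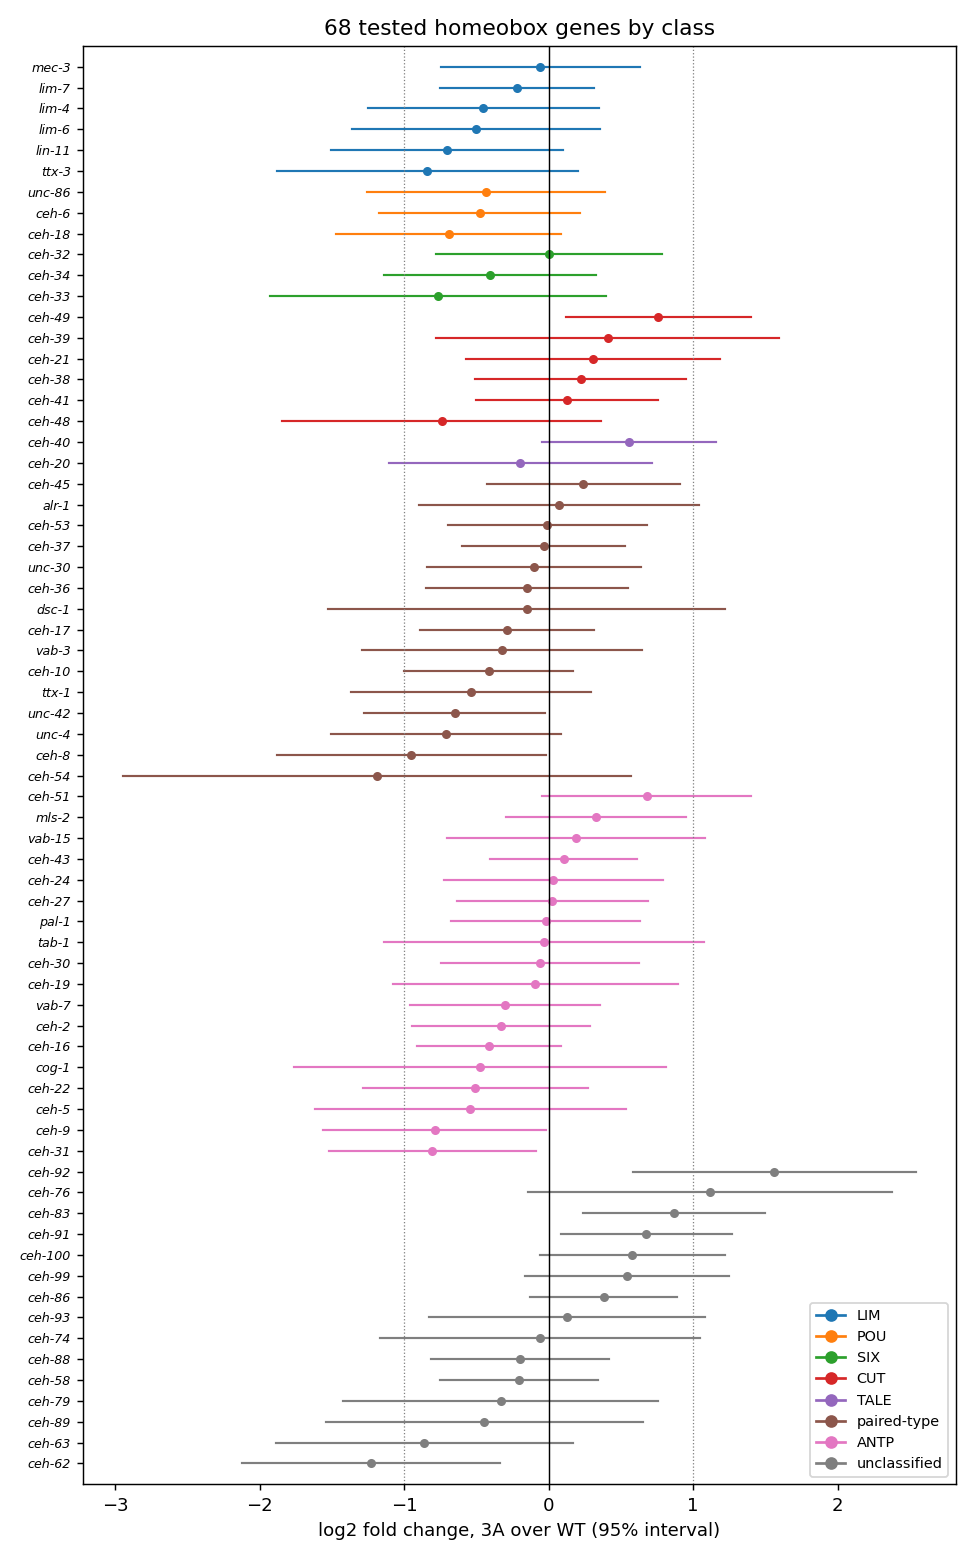
Log2 fold change of 3A over WT for the 68 tested homeobox genes with its 95% interval, grouped by homeodomain class, from edgeR's quasi-likelihood fit. Dotted lines mark 2-fold changes; 9 intervals exclude 0 before adjustment, and no gene has an adjusted p-value under 0.05.

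The 4 genes higher before adjustment were ceh-92, ceh-83, ceh-91 and ceh-49, the first 3 of them genes with no class or role assigned here. ceh-92 (WBGene00013431; WBcel235 chromosome III, 11581600 to 11589133, plus strand) stood at 1.26, 1.39, 1.93 and 1.74 CPM in 3A replicates 1 to 4, against 0.569, 0.193, 0.742 and 0.664 CPM in WT replicates 1 to 4. Every 3A library lay above every WT library, and the lowest value was that of WT replicate 2. Its log2 fold change was 1.56 (SE 0.45, 95% interval 0.59 to 2.54, adjusted p = 0.297 by edgeR), the largest among the 68. ceh-83 (WBGene00018446; WBcel235 chromosome II, 1733716 to 1736533, minus strand) stood at 10.6, 9.20, 16.4 and 14.5 CPM in 3A replicates 1 to 4, against 8.66, 4.75, 7.74 and 6.56 CPM in WT replicates 1 to 4. The strains did not overlap, although the highest WT library and the lowest 3A library were close, and the log2 fold change was 0.87 (SE 0.29, 95% interval 0.24 to 1.50, adjusted p = 0.382 by edgeR). ceh-91 (WBGene00013425; WBcel235 chromosome III, 11616746 to 11623994, plus strand), on the same strand of chromosome III as ceh-92 and near it, stood at 8.46, 6.60, 10.3 and 7.60 CPM in 3A replicates 1 to 4, against 6.62, 4.12, 4.18 and 5.81 CPM in WT replicates 1 to 4. Its 3A replicate 2 lay between WT replicate 4 and WT replicate 1, so the strains overlapped, and the log2 fold change was 0.68 (SE 0.27, 95% interval 0.08 to 1.27, adjusted p = 0.471 by edgeR). ceh-100 (WBGene00012584; WBcel235 chromosome II, 12582178 to 12603680, minus strand) stood at 47.9, 44.7, 43.01 and 56.97 CPM in 3A replicates 1 to 4, against 48.4, 23.8, 21.6 and 35.2 CPM in WT replicates 1 to 4. WT replicate 1 lay within the 3A range and the other 3 WT libraries below it, and the log2 fold change was 0.58 (SE 0.29, 95% interval -0.06 to 1.22, adjusted p = 0.566 by edgeR). ceh-76 (WBGene00022395; WBcel235 chromosome V, 7993717 to 7994670, minus strand) stood at 0.264, 1.08, 0.831 and 1.19 CPM in 3A replicates 1 to 4, against 0.0899, 0.608, 0.451 and 0.332 CPM in WT replicates 1 to 4, with overlap and a log2 fold change of 1.12 (SE 0.58, 95% interval -0.14 to 2.38, adjusted p = 0.575 by edgeR). ceh-86 (WBGene00018355; WBcel235 chromosome II, 2426366 to 2432072, minus strand) stood at 49.5, 58.3, 56.7 and 50.7 CPM in 3A replicates 1 to 4, against 39.8, 40.8, 33.9 and 50.8 CPM in WT replicates 1 to 4. Only WT replicate 4 reached the 3A range, and the log2 fold change was 0.38 (SE 0.23, 95% interval -0.13 to 0.89, adjusted p = 0.626 by edgeR).

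Likeness over the 8 libraries was measured by Pearson's r of log2 CPM with ceh-92, the gene with the smallest p. The most like were ceh-83 (r = 0.922), ceh-91 (0.804), ceh-49 (0.793), ceh-100 (0.675) and ceh-40 (0.667). All 5 have positive log2 fold changes. ceh-92 was picked by its p-value between the strains and both strains enter r, so a shared sign was likely in advance. The points also share library depth and composition, and the r values are a description with no test.

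Homeobox genes of the CUT class carry a cut domain beside the homeodomain, and 5 of the 6 in the set had positive values (median log2 fold change 0.26). Over all genes tested the share was 42.8%. The CUT count was 3 of 6 when counts were scaled by library size alone and 4 of 6 without WT replicate 4. The positive genes include the adjacent ceh-41, ceh-21 and ceh-39, each highest in WT replicate 1, which may not be separate observations. None of the 6 was called by edgeR. ceh-49 (WBGene00017538; WBcel235 chromosome V, 6118333 to 6120206, minus strand) stood at 5.82, 5.88, 11.3 and 7.97 CPM in 3A replicates 1 to 4, against 3.66, 4.23, 5.04 and 5.48 CPM in WT replicates 1 to 4. The strains did not overlap, by a small margin between 3A replicate 1 and WT replicate 4. Its log2 fold change was 0.76 (SE 0.29, 95% interval 0.12 to 1.40, adjusted p = 0.459 by edgeR). ceh-39, an X signal element that helps count X chromosomes by repressing the sex switch gene xol-1, stood at 10.3, 4.14, 9.64 and 16.03 CPM in 3A replicates 1 to 4, against 17.4, 3.03, 4.97 and 4.57 CPM in WT replicates 1 to 4. WT replicate 1 was the highest of the 8 libraries and the other 3 WT libraries were near the lowest 3A library. The log2 fold change was 0.41 (SE 0.54, adjusted p = 0.843 by edgeR) with all libraries and 1.26 (SE 0.38, adjusted p = 0.101 by edgeR) without WT replicate 1. It was lowest, 0.10, without 3A replicate 4. ceh-39 and its neighbours were chosen for description after their values were seen. ceh-21 lies 1137 bp from ceh-39 on the minus strand of chromosome X, and ceh-41 lies 103 bp from ceh-21 on the same strand. ceh-21 stood at 14.01, 8.10, 15.5 and 13.5 CPM in 3A replicates 1 to 4, against 20.6, 5.69, 8.05 and 6.98 CPM in WT replicates 1 to 4, with WT replicate 1 again the highest library. Its log2 fold change was 0.31 (SE 0.40, adjusted p = 0.843 by edgeR) with all libraries and 0.90 (SE 0.27, adjusted p = 0.0998 by edgeR) without WT replicate 1. It was lowest, 0.10, without WT replicate 2. ceh-41 gave 0.13 with all libraries, 0.40 without WT replicate 1 and -0.02 without WT replicate 4.

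Among the TALE class genes the 2 PBC members tested had values of opposite sign, and neither passed the test. ceh-40 (WBGene00000461; WBcel235 chromosome X, 12318126 to 12320777, minus strand) stood at 26.4, 36.2, 43.6 and 44.1 CPM in 3A replicates 1 to 4, against 17.6, 25.2, 26.1 and 33.5 CPM in WT replicates 1 to 4. 3A replicate 1 lay just above WT replicate 3 and below WT replicate 4, the other 3A libraries were above all WT libraries, and the log2 fold change was 0.55 (SE 0.28, 95% interval -0.05 to 1.16, adjusted p = 0.561 by edgeR). ceh-20 (WBGene00000443; WBcel235 chromosome III, 6979884 to 6981785, plus strand) stood at 25.9, 69.1, 25.2 and 23.4 CPM in 3A replicates 1 to 4, against 25.9, 54.5, 57.6 and 26.4 CPM in WT replicates 1 to 4. The libraries formed a high set of 3A replicate 2 and WT replicates 2 and 3, and a low set of the other 5, all between 23.4 and 26.4 CPM. The high set also had the 3 largest TMM factors (1.44, 1.32 and 1.93), beside 0.630 to 1.06 in the others, and the part of library composition in this split was not tested. The log2 fold change of ceh-20 was -0.20 (SE 0.42, 95% interval -1.11 to 0.72, adjusted p = 0.910 by edgeR) with all libraries and -0.73 (SE 0.36, adjusted p = 0.492 by edgeR) without 3A replicate 2, and it ran over -0.73 to 0.01 when any 1 library was left out, highest without WT replicate 3.

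**Figure D3:**
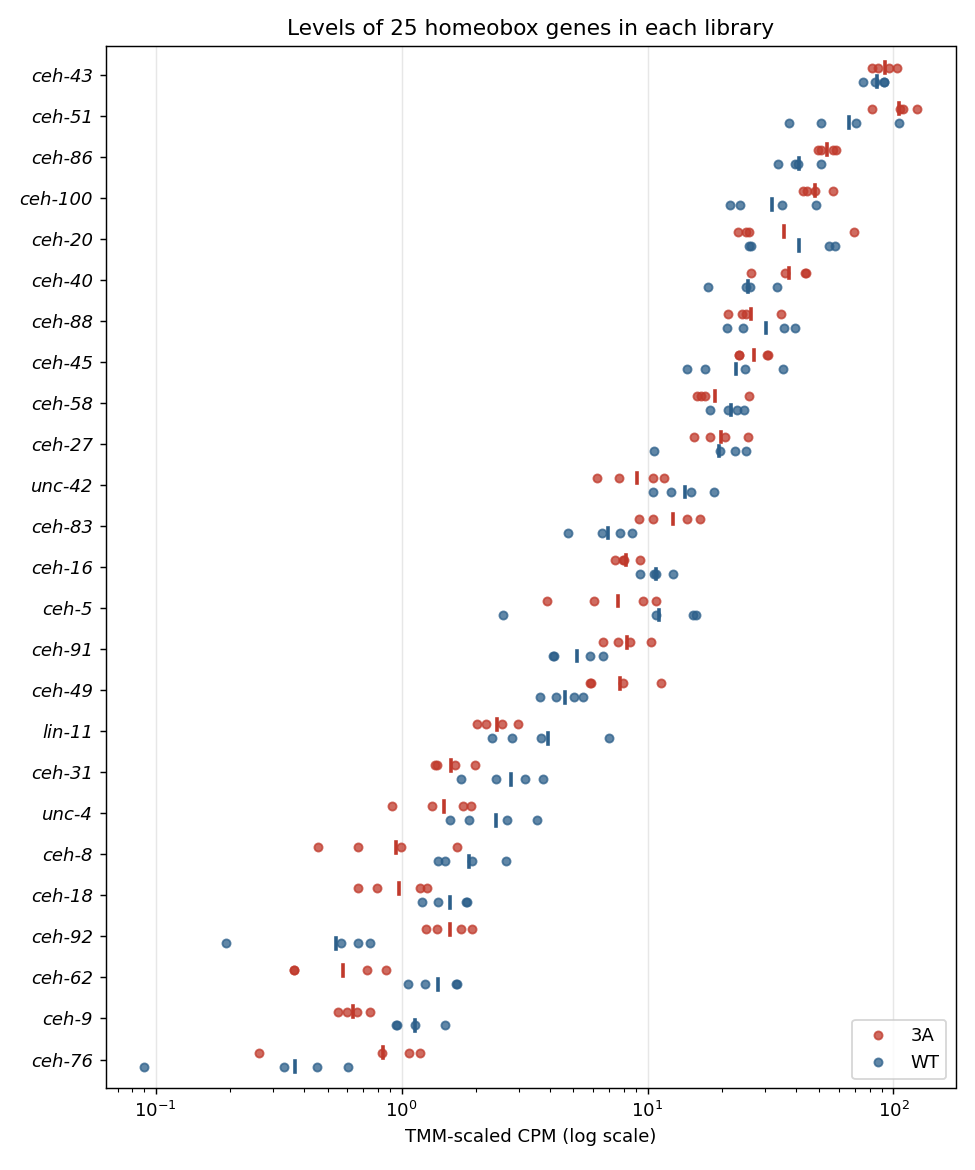
TMM-scaled CPM (log scale) of 25 homeobox genes in each library, with 3A above WT in each row, points for single libraries and short bars for group means (n = 4 each). The points of the 2 strains separate for ceh-92, ceh-83 and ceh-49, higher in 3A, and for ceh-62, ceh-9 and ceh-16, lower in 3A, and overlap for the others.

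The 22 genes of the ANTP class outside the Hox cluster summed to 277, 268, 310 and 292 CPM in 3A replicates 1 to 4, against 238, 253, 230 and 283 CPM in WT replicates 1 to 4, without correction for length, and the sums overlapped between the strains. Of its 18 genes tested, 6 had positive and 12 negative values (median log2 fold change -0.08), and 0 were called. ceh-51 had the widest difference in mean CPM per kb of the 82 genes. It stood at 107, 81.8, 125 and 109.5 CPM in 3A replicates 1 to 4, against 70.4, 50.9, 37.8 and 105 CPM in WT replicates 1 to 4. WT replicate 4 lay among the 3A libraries and the other 3 WT libraries below all of them, and the log2 fold change was 0.68 (SE 0.33, 95% interval -0.04 to 1.40, adjusted p = 0.548 by edgeR). ceh-16 (WBGene00000439; WBcel235 chromosome III, 8622735 to 8626314, plus strand), which acts in the lateral epidermis, stood at 7.996, 9.35, 7.35 and 7.97 CPM in 3A replicates 1 to 4, against 9.35, 12.7, 10.6 and 10.8 CPM in WT replicates 1 to 4. The highest 3A library and the lowest WT library were almost equal, yet the strains did not overlap. The log2 fold change was -0.41 (SE 0.23, 95% interval -0.91 to 0.09, adjusted p = 0.590 by edgeR). ceh-9 (WBGene00000434; WBcel235 chromosome I, 565284 to 566588, minus strand) was low and did not overlap either, at 0.661, 0.741, 0.598 and 0.550 CPM in 3A replicates 1 to 4, against 0.959, 0.953, 1.13 and 1.50 CPM in WT replicates 1 to 4, with a log2 fold change of -0.79 (SE 0.35, 95% interval -1.56 to -0.02, adjusted p = 0.511 by edgeR). ceh-31 (WBGene00000452; WBcel235 chromosome X, 3068648 to 3070422, minus strand), a BarH homologue, stood at 1.39, 1.98, 1.36 and 1.65 CPM in 3A replicates 1 to 4, against 3.78, 3.18, 2.42 and 1.74 CPM in WT replicates 1 to 4. 3A replicate 2 was above WT replicate 4, and the log2 fold change was -0.81 (SE 0.33, 95% interval -1.52 to -0.09, adjusted p = 0.479 by edgeR). Its paralogue ceh-30, 3096 bp away on the opposite strand of chromosome X, had a log2 fold change of -0.06 with an interval of -0.74 to 0.62, and 0.13 without WT replicate 1. The difference between the 2 paralogues was not tested.

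The remaining ANTP genes near the top of the order did not separate the strains. ceh-27 (WBGene00000449; WBcel235 chromosome V, 11661549 to 11665102, minus strand) stood at 15.5, 25.6, 17.9 and 20.6 CPM in 3A replicates 1 to 4, against 10.6, 25.1, 22.8 and 19.7 CPM in WT replicates 1 to 4, with WT replicate 1 the lowest library and a log2 fold change of 0.03 (SE 0.30, adjusted p = 0.987 by edgeR). ceh-5 (WBGene00000430; WBcel235 chromosome I, 9727169 to 9728034, plus strand), a Vax homologue, stood at 3.90, 10.8, 9.57 and 6.05 CPM in 3A replicates 1 to 4, against 2.58, 15.7, 15.3 and 10.8 CPM in WT replicates 1 to 4. WT replicate 1 was lowest here too and WT replicates 2 and 3 highest. The log2 fold change of ceh-5 was -0.54 (SE 0.49, adjusted p = 0.760 by edgeR) with all libraries and -0.86 (SE 0.32, adjusted p = 0.145 by edgeR) without WT replicate 1. It was nearest to 0, at -0.32, without 3A replicate 1. The posterior patterning gene vab-7, an even-skipped homologue, had a log2 fold change of -0.30 with all libraries and 0.01 without WT replicate 1. Its known upstream regulator pal-1 had -0.02, with a range of -0.19 to 0.16 when 1 library was left out. ceh-22, the NK-2 gene of pharyngeal muscle, had -0.51, and mls-2, an HMX gene of the postembryonic mesoderm lineage, 0.33.

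The LIM, POU and paired-type classes include many terminal selectors of neurons. A negative log2 fold change was found for 6 of 6 LIM genes tested (median -0.48), 3 of 3 POU genes (median -0.48) and 13 of 15 paired-type genes (median -0.29), with 0 called in each. Without WT replicate 1 the counts were 6 of 6, 3 of 3 and 8 of 15, with medians of -0.23, -0.57 and -0.14. Over all genes tested, 57.2% had a negative value with all libraries, and the median was -0.02 without WT replicate 1. The share of negative values over all genes in that fit is not given here. The LIM count was 5 of 6 without 3A replicate 1, without WT replicate 2, without WT replicate 3 and with 1 surrogate variable. The paired-type count was 11 of 15 without 3A replicate 2, 10 of 15 without 3A replicate 3 and 14 of 15 without WT replicate 4. The LIM genes together held 18.3, 20.1, 16.5 and 14.8 CPM in 3A replicates 1 to 4, against 27.5, 21.3, 23.9 and 16.6 CPM in WT replicates 1 to 4. The sums overlapped between the strains, and WT replicate 1 was the highest library.

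unc-42 (WBGene00006778; WBcel235 chromosome V, 9764534 to 9769391, minus strand), a paired-type selector of the command interneurons that drive locomotion, was the most abundant of these genes whose unadjusted p-value was under 0.05. It stood at 11.7, 10.5, 6.25 and 7.69 CPM in 3A replicates 1 to 4, against 18.7, 15.01, 12.5 and 10.6 CPM in WT replicates 1 to 4. 3A replicate 1 lay above WT replicate 4, 3A replicate 2 just below it, and the other libraries did not overlap. Its log2 fold change was -0.65 (SE 0.29, 95% interval -1.28 to -0.02, adjusted p = 0.502 by edgeR). unc-4 (WBGene00006744; WBcel235 chromosome II, 9897751 to 9900376, minus strand), which sets the synaptic inputs of A-type motor neurons, stood at 1.78, 1.91, 1.33 and 0.916 CPM in 3A replicates 1 to 4, against 1.89, 3.56, 2.69 and 1.58 CPM in WT replicates 1 to 4, with overlap and a log2 fold change of -0.71 (SE 0.37, 95% interval -1.51 to 0.09, adjusted p = 0.574 by edgeR). ceh-8 (WBGene00000433; WBcel235 chromosome I, 8245505 to 8250948, minus strand), the retinal homeobox homologue, stood at 0.991, 1.67, 0.665 and 0.458 CPM in 3A replicates 1 to 4, against 1.50, 2.67, 1.93 and 1.41 CPM in WT replicates 1 to 4. 3A replicate 2 lay within the WT range and the other 3A libraries below it, and the log2 fold change was -0.95 (SE 0.43, 95% interval -1.88 to -0.02, adjusted p = 0.511 by edgeR). The goosecoid homologue ceh-45 (WBGene00022837; WBcel235 chromosome I, 1128324 to 1131765, plus strand), far more abundant, stood at 30.9, 23.5, 23.5 and 30.7 CPM in 3A replicates 1 to 4, against 35.5, 17.1, 14.5 and 24.9 CPM in WT replicates 1 to 4. Both the highest and the 2 lowest of the 8 values were WT libraries, and the log2 fold change was 0.24 (SE 0.31, adjusted p = 0.835 by edgeR).

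In the LIM class lin-11 (WBGene00003000; WBcel235 chromosome I, 10248288 to 10255327, plus strand), which acts in vulval cells and several neuron types, stood at 2.97, 2.56, 2.03 and 2.20 CPM in 3A replicates 1 to 4, against 6.98, 2.82, 3.68 and 2.33 CPM in WT replicates 1 to 4. WT replicate 1 was far above the rest. The log2 fold change was -0.70 (SE 0.37, 95% interval -1.51 to 0.10, adjusted p = 0.580 by edgeR) with all libraries and -0.28 (SE 0.30, adjusted p = 0.612 by edgeR) without WT replicate 1. In the POU class ceh-18 (WBGene00000441; WBcel235 chromosome X, 3843367 to 3857797, minus strand), known for its part in gonadal sheath cells and oocyte maturation, stood at 0.793, 1.27, 0.665 and 1.19 CPM in 3A replicates 1 to 4, against 1.83, 1.22, 1.84 and 1.41 CPM in WT replicates 1 to 4. 3A replicate 2 was above WT replicate 2, and the log2 fold change was -0.69 (SE 0.36, 95% interval -1.47 to 0.09, adjusted p = 0.575 by edgeR). The touch neuron selectors unc-86 (POU) and mec-3 (LIM), of which UNC-86 activates mec-3 and then acts with it, had log2 fold changes of -0.43 and -0.06, and when 1 library was left out these ran over -0.74 to -0.25 and -0.22 to 0.06. The cholinergic interneuron pair ttx-3 (LIM) and ceh-10 (paired-type), which act together in AIY, had -0.84 and -0.42. ttx-3 stood at 0.991, 0.813, 0.897 and 0.733 CPM in 3A replicates 1 to 4, against 3.18, 1.22, 0.711 and 1.08 CPM in WT replicates 1 to 4, and its highest value was WT replicate 1, without which its log2 fold change was -0.19. Further LIM genes were lim-6 at -0.50, lim-4, which sets the identity of the AWB olfactory neurons, at -0.45 and lim-7 at -0.22, and the remaining POU gene ceh-6 had -0.48. The Otx homologues of sensory neurons had -0.54 (ttx-1, of the thermosensory AFD neurons), -0.15 (ceh-36) and -0.03 (ceh-37, 10805 bp from ceh-36 on the minus strand of chromosome X). Without WT replicate 1 ttx-1 was at -0.14 and ceh-36 at 0.24, and lim-6 and lim-4 were at -0.25 and -0.16. The Pax6 homologue vab-3, which patterns the head, had -0.32 with all libraries and 0.24 without WT replicate 1. Over the paired-type class the values ran from -1.19 for ceh-54, which was under 1 CPM in every library, to 0.24 for ceh-45.

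Of the 3 genes of the sine oculis class, ceh-32 had a log2 fold change of 0.01 (-0.27 to 0.34 when 1 library was left out), ceh-34 one of -0.41 and ceh-33 one of -0.77, and 0 were called. ceh-34, a selector of pharyngeal neurons, lies 3616 bp from ceh-33 on the minus strand of chromosome V. It stood at 6.48, 5.98, 3.19 and 4.67 CPM in 3A replicates 1 to 4, against 10.5, 5.15, 6.58 and 4.57 CPM in WT replicates 1 to 4 and overlapped between the strains. ceh-33 stood at 0.330, 0.789, 0.399 and 0.0916 CPM in 3A replicates 1 to 4, against 0.420, 0.815, 1.12 and 0.581 CPM in WT replicates 1 to 4, also with overlap. When 1 library was left out, the log2 fold change of ceh-34 ran over -0.54 to -0.10, nearest to 0 without WT replicate 1, and that of ceh-33 over -1.34 to -0.48, lowest without 3A replicate 2.

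Of the 15 tested genes with no class assigned here, 7 had negative values, among them ceh-62, ceh-58 and ceh-88. ceh-62 (WBGene00011069; WBcel235 chromosome II, 10805737 to 10808611, plus strand) stood at 0.727, 0.861, 0.366 and 0.366 CPM in 3A replicates 1 to 4, against 1.68, 1.06, 1.25 and 1.66 CPM in WT replicates 1 to 4. Every 3A library lay below every WT library, and the log2 fold change of -1.23 (SE 0.41, 95% interval -2.12 to -0.34, adjusted p = 0.383 by edgeR) was the lowest of the 68. ceh-58 (WBGene00007417; WBcel235 chromosome II, 10367741 to 10369597, minus strand) stood at 17.2, 25.9, 16.5 and 15.9 CPM in 3A replicates 1 to 4, against 17.98, 24.8, 23.2 and 21.2 CPM in WT replicates 1 to 4, with a log2 fold change of -0.20 (SE 0.25, adjusted p = 0.829 by edgeR). Its neighbour ceh-57, 444 bp away on the same strand, had at most 33 counts in any library. ceh-88 (WBGene00008195; WBcel235 chromosome IV, 17329188 to 17332435, plus strand) stood at 24.1, 34.95, 21.3 and 25.2 CPM in 3A replicates 1 to 4, against 21.1, 39.9, 24.5 and 35.96 CPM in WT replicates 1 to 4, with a log2 fold change of -0.20 (SE 0.28, adjusted p = 0.852 by edgeR). It shares 809 of its 2491 exonic bases with C49C3.6 on its own strand, so its counts are uncertain there. Shorter stretches were shared with other genes by ceh-8 (76 of 1313 bases), ceh-63 (18 of 933) and ceh-27 (11 of 1191), making 4 of the 82 in all. Exonic bases shared with a gene on the opposite strand were found for 19 of the 82, and the libraries were directional and counted by strand.

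WT replicate 1 differed from the other WT libraries in many homeobox genes, as it did in genes at large. It held the highest WT value for 26 of the 68 tested genes (38.2%) and the lowest for another 26 (38.2%), beside 36.2% and 37.9% of all genes tested. The widest departures were in cog-1, an NK-6 class gene, and in ceh-54. cog-1 stood at 3.64, 2.22, 1.26 and 2.56 CPM in 3A replicates 1 to 4, against 8.54, 1.49, 1.74 and 1.50 CPM in WT replicates 1 to 4. Its value in WT replicate 1 was 5.42 times the mean of the other WT libraries. Its log2 fold change was -0.48 with all libraries and 0.60 without WT replicate 1. ceh-54 stood at 0, 0.359, 0.199 and 0.0916 CPM in 3A replicates 1 to 4, against 0.0300, 0.566, 0.596 and 0.581 CPM in WT replicates 1 to 4, and its value in WT replicate 1 rested on 1 count. Leaving out WT replicate 1 turned the sign for 13 of the 68 genes, against 4 to 7 for each of the other libraries, and 0 were called in any of these 8 fits. The smallest adjusted p-value without WT replicate 1 was 0.0832 by edgeR, for ceh-83. cog-1 and ceh-54 were chosen for description after their values were seen. By position, 26 of the 82 genes lie on the X chromosome. For the 21 tested among them the median log2 fold change was -0.15, beside -0.24 for the 1853 genes tested on X.

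**Figure D4:**
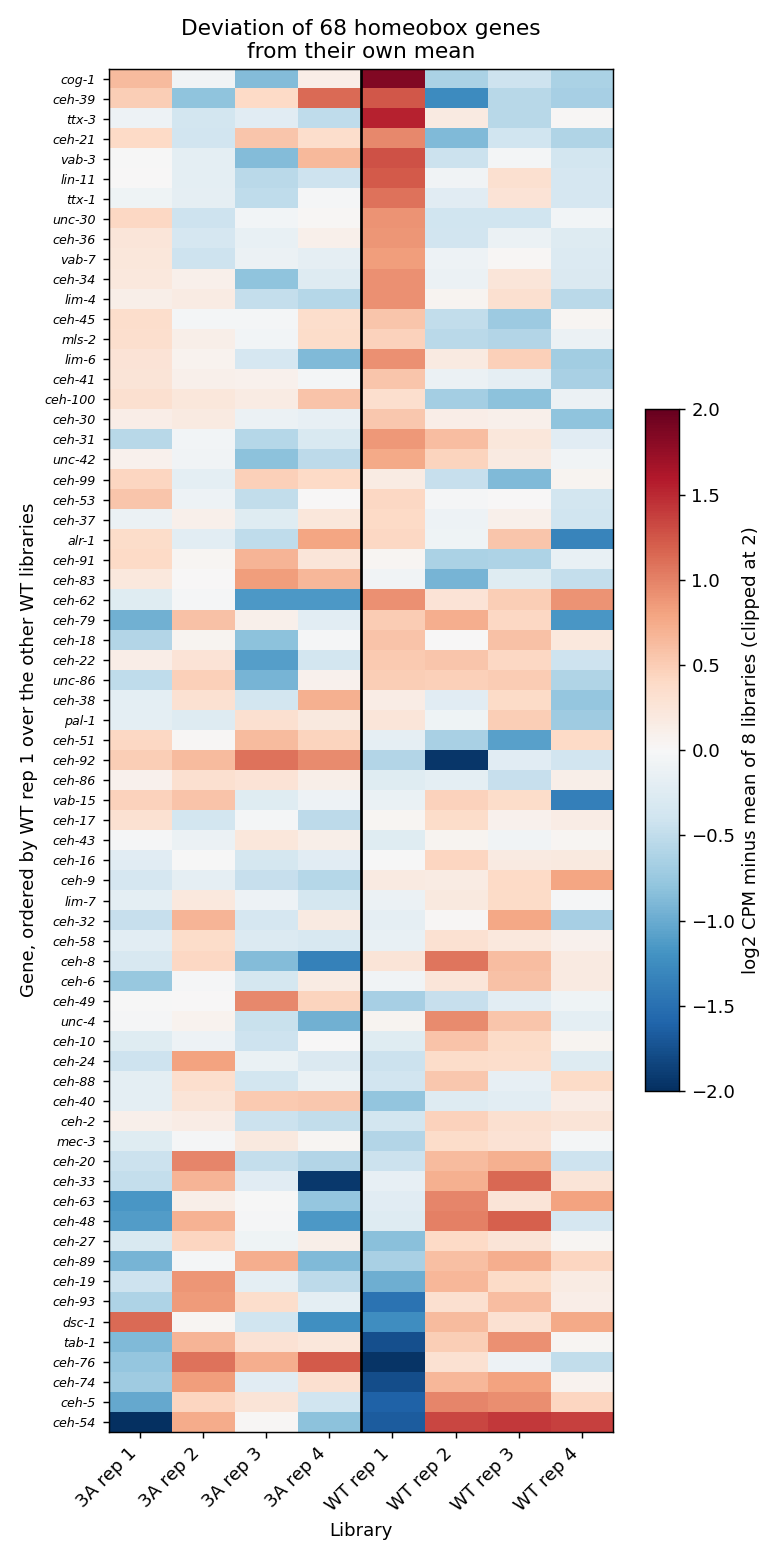
Log2 CPM of each tested homeobox gene minus its mean over the 8 libraries, clipped at 2 in either direction, with 3A libraries left of the line and WT libraries right of it. Rows are ordered by WT replicate 1 over the mean of the other WT libraries, from 5.42 for cog-1 at the top to 0.0515 for ceh-54 at the bottom, and no column block separates the strains across the set.

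Markers of differentiated tissue and of the early embryo also varied between libraries. The summed level of 16 muscle markers was 1567 to 3946 CPM in 3A libraries and 1700 to 7988 CPM in WT libraries, with the highest sum in WT replicate 1. That of 16 epidermal markers was 4889 to 14410 CPM in 3A libraries and 2651 to 22720 CPM in WT libraries, again highest in WT replicate 1. That of 16 neuronal markers was 160 to 236 CPM in 3A libraries and 187 to 373 CPM in WT libraries. For 12 intestinal markers it was 310 to 702 CPM in 3A libraries and 353 to 1540 CPM in WT libraries, and for 12 pharyngeal markers, of which ceh-22 is itself a homeobox gene, 257 to 443 CPM in 3A libraries and 335 to 559 CPM in WT libraries. In these 5 lists WT replicate 1 was the highest of all 8 libraries. The summed level of 16 germline markers was 106 to 178 CPM in 3A libraries and 42.8 to 116 CPM in WT libraries, and that of 19 early embryo markers 66.2 to 107 CPM in 3A libraries and 48.7 to 87.04 CPM in WT libraries. The early embryo list held 20 markers, of which 19 were found in the count files. The early endomesoderm gene med-1 had no counts in any library. Every other marker of these 7 lists found in the files had counts in at least 1 library. Both early and differentiated markers were therefore present in embryos labelled late. The part of stage or tissue composition in the homeobox values was not tested.

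Of all these markers 1 was called by edgeR. Neuronal markers had a median log2 fold change of -0.50 with 0 of 15 tested called, muscle markers -0.32 with 0 of 16, epidermal markers -0.15 with 0 of 14, intestinal markers -0.23 with 0 of 12 and pharyngeal markers -0.46 with 0 of 11. Early embryo markers had a median of 0.63 with 0 of 17 called, and germline markers 0.53 with 1 of 16 called, syp-1, a synaptonemal complex gene. At an unadjusted p-value under 0.05, 6 early embryo markers and 3 germline markers were higher and none of either list lower, beside 5.72% higher and 4.03% lower over all genes tested. Values were negative for 12 of 15 neuronal, 14 of 16 muscle and 9 of 14 epidermal markers. They were also negative for 8 of 12 intestinal and 10 of 11 pharyngeal markers. Positive values were found for 16 of 17 early embryo and 16 of 16 germline markers. The shares over all genes tested were 57.2% negative and 42.8% positive. The 2 positive muscle markers were unc-22 and unc-89. The 3 smallest p-values of each list belonged to rab-3 (-1.28), ric-4 (-0.72) and sng-1 (-0.51) among neuronal markers and to unc-22 (1.43), unc-89 (0.90) and unc-15 (-0.77) among muscle markers, all values being log2 fold changes. They belonged to bli-2 (1.06), che-14 (-0.86) and lin-26 (-0.41) in the epidermal list, to pept-1 (-0.71), ifb-2 (-0.65) and vha-6 (-0.68) in the intestinal list and to tnc-2 (-0.46), phat-1 (-0.59) and tni-4 (-0.45) in the pharyngeal list. In the germline list they were syp-1 (2.67), pgl-3 (1.81) and glh-1 (1.04), and in the early embryo list tbx-37 (1.11), mex-6 (1.21) and end-3 (1.10).

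No gene of the related regulatory lists was called. Of 18 further homeobox genes, which include the Hox genes, the Meis homologue unc-62 and the zinc finger homeobox gene zag-1, all 18 were tested, 0 were called and none reached 0.05 before adjustment. Their median log2 fold change was -0.22, with pros-1 at -0.73, lin-39 at -0.52 and mab-5 at -0.51 leading by p-value. The summed level of the 18 was highest in WT replicate 1, at 418 CPM. It was 195 to 214 CPM in the other WT libraries and 203 to 260 CPM in 3A libraries. Of 24 neuronal fate regulators of other families, 22 were tested and 0 called. Their median was -0.38, and 21 of the 22 values were negative, with 4 lower and 0 higher at an unadjusted p-value under 0.05. Over all genes tested 57.2% were negative and 4.03% lower by that measure. The summed level of these regulators was highest in WT replicate 1, at 203 CPM. It was 113 to 162 CPM in the other WT libraries and 120 to 155 CPM in 3A libraries, and the part of WT replicate 1 in their values was not tested. First by p-value in that list was the SoxB gene sox-3, at 2.05, 2.68, 1.46 and 1.19 CPM in 3A replicates 1 to 4, against 3.48, 4.02, 3.93 and 4.07 CPM in WT replicates 1 to 4, with a log2 fold change of -1.05 (SE 0.31, adjusted p = 0.319 by edgeR). sem-4 followed with -1.10 and hlh-8 with -0.93. The dropped gene unc-3, a selector of cholinergic motor neurons, stood at 1.06, 0.717, 0.465 and 3.30 CPM in 3A replicates 1 to 4, against 3.15, 0.953, 1.43 and 0.747 CPM in WT replicates 1 to 4, with a log2 fold change of -0.29 (SE 0.63, adjusted p = 0.910 by edgeR). Of 6 cofactor genes, among them ldb-1 for LIM proteins and unc-37 for UNC-4, 0 were called and the median was -0.23. The smallest p among them belonged to psa-3 (-0.32), pag-3 (-0.32) and unc-37 (0.17). The summed level of the 6 was also highest in WT replicate 1, at 277 CPM. It was 88.1 to 146 CPM in the other WT libraries and 124 to 184 CPM in 3A libraries. Of the 8 DREAM component genes 0 were called, with a median of 0.47 and the smallest p for lin-35 (0.67), lin-9 (0.66) and dpl-1 (0.55).

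Known targets of the homeobox factors were set beside their regulators. Of 24 target genes 16 were tested, 0 were called and 13 had a negative value (median log2 fold change -0.45). Over all genes tested, 57.2% were negative. The summed level of the 24 targets was highest in WT replicate 1, at 452 CPM. It was 210 to 264 CPM in the other WT libraries and 213 to 304 CPM in 3A libraries. The part of WT replicate 1 in the target values was not tested. UNC-30 activates unc-25 and unc-47, the GABA synthesis and vesicular transport genes of D-type motor neurons. unc-30 itself had a log2 fold change of -0.10 with all libraries and 0.31 without WT replicate 1. With all libraries unc-25 had -0.67 (SE 0.35, adjusted p = 0.578 by edgeR) and unc-47 -1.38 (SE 0.55, adjusted p = 0.471 by edgeR). unc-47 stood at 0.264, 0.454, 0.332 and 0 CPM in 3A replicates 1 to 4, against 0.749, 0.677, 1.02 and 0.581 CPM in WT replicates 1 to 4. No 3A library reached the lowest WT library, and 3A replicate 4 had 0 counts. A count of 3 corresponded to 0.198 CPM in 3A replicate 1, 0.275 CPM in 3A replicate 4 and 0.249 CPM in WT replicate 4. The unc-47 values therefore rested on few counts in these shallower libraries. UNC-86 and MEC-3 activate the touch neuron genes mec-12, mec-7, mec-17, mec-18 and mec-4, whose log2 fold changes were -0.62, -0.43, -0.47, -0.50 and -0.35. CEH-22 activates the pharyngeal myosin gene myo-2, which stood at 35.5, 19.2, 9.17 and 30.5 CPM in 3A replicates 1 to 4, against 88.96, 12.3, 15.9 and 18.3 CPM in WT replicates 1 to 4, highest in WT replicate 1, with a log2 fold change of -0.53 (SE 0.62, adjusted p = 0.822 by edgeR). PAL-1 acts upstream of hlh-1, elt-1, tbx-8 and tbx-9 in the C lineage, and these had -0.12, -0.14, 0.19 and 0.41. UNC-42 activates the glutamate receptor gene glr-1, which had -0.40, beside -0.65 for unc-42.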

How the data were processed

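Poly(A) RNA of 8 whole-embryo samples (1 µg of total RNA each) was sequenced as 150-bp paired-end reads from directional libraries, per the labels' protocols. The authors deposited raw counts per gene, 1 file per library. The submitters' processing notes name fastp, STAR, HTSeq and DESeq2 without versions, and build WBcel235. The annotation release is not given in the sources used here. Pairs with several alignments, and pairs falling on more than 1 gene, sit in HTSeq's closing counters and were not used, so near-identical copies lose reads. Gene identifiers were matched to symbols in a reference list; positions and exonic lengths are those of the Ensembl annotation of WBcel235. No promoter or protein sequence was used here.

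The main fit used edgeR 4.0.16 under R 4.3.3 (filterByExpr, TMM, quasi-likelihood) with 1 term for genotype. The 12664 p-values were adjusted together by the Benjamini-Hochberg method, and 0.05 was the threshold. SE is the log2 fold change divided by the square root of F, and 95% intervals use the moderated degrees of freedom. Alternatives included DESeq2 1.42.0 and sva 3.50.0. In simulated data with 200 genes changed by 2 on the log2 scale among 12664, 151 (75.5%) were called, with 10 false calls. The simulated counts were drawn independently for each library, without shifts shared by many genes. The planted change is larger than any among the 68 homeobox genes, whose maximum was 1.56. The share called for smaller changes was not measured.

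The homeobox genes and the companion lists were chosen with earlier results of these data known. The rule for values per library takes the 16 genes with the smallest p, the 12 with the highest CPM per kb of exon and every gene of at least 1 CPM without overlap between strains, 25 in all. From each companion list the 3 smallest p and any called gene are named. Further homeobox genes and targets are named for their known roles, their position or the departure of 1 library, chosen with their values known; of these ceh-39, ceh-21, ttx-3, ceh-34, ceh-33, cog-1 and ceh-54 also have values per library. Replicate libraries did not agree within sampling noise (lowest chi-square per degree of freedom 63.9), and all 8 were counted separately. The labels call them biological replicates.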

Additional observations from a re-analysis of the deposited data

Results flagged for a closer look

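In 50 groups of 4 libraries, 3A and WT for each of 25 homeobox genes, a single library stood apart from the other 3 by Dixon's criterion (0.829 for 4 values) in 2 groups. Chance gives about 1 in 20 groups. ceh-20 had 69.1 CPM in 3A replicate 2, and the other 3A libraries lay between 23.4 and 25.9 CPM. ceh-58 had 25.9 CPM in 3A replicate 2, and the other 3A libraries lay between 15.9 and 17.2 CPM. 3A replicate 2 has the largest TMM factor of the 3A libraries, 1.44, and the smallest ribosomal RNA share, 1.75%, and the part of either in these values was not tested.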

How the results depend on the processing

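No homeobox gene was called in any of the 16 alternatives: 0 higher and 0 lower with DESeq2 size factors, library size alone, no low-count filter, a filter of 1 CPM in 4 libraries, ribosomal RNA genes removed, the replicate block, 1 surrogate variable, the DESeq2 Wald test, or each library left out. The smallest adjusted p-value of any homeobox gene was 0.0541, for ceh-92 with DESeq2. The median log2 fold change of the homeobox genes (-0.17) was -0.49 with library size alone, where the median of all genes moved to -0.40, and it ranged from -0.30 to -0.079 when 1 library was left out. Of the 68 genes, 44 kept their sign in every alternative that gave a value, and the cause of the other changes was not tested. The numbers of all genes called, 45 higher and 2 lower, moved to 9 and 1 with library size alone, to 146 and 19 with DESeq2 and to 315 and 68 with 1 surrogate variable, and without a low-count filter 4 were lower. With 1 library left out they ranged from 17 to 143 higher and from 0 to 53 lower, both highest without WT replicate 1; they were 17 and 1 without WT replicate 2, 18 and 0 without 3A replicate 3, 24 and 1 without WT replicate 3, and 7 were lower without 3A replicate 4. With the replicate block 155 were higher and 20 lower. Same-numbered libraries had correlated deviations of 0.57, 0.60, 0.18 and 0.0085, so the numbers were not taken to pair the libraries, and both strains' libraries correlated best with their own number for replicate 1 only. Depth limits the 14 untested genes and those near 1 CPM.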
